A study of Mus musculus with 18 samples.

Results

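Epithelial-mesenchymal transition, the programme by which an epithelial cell loosens its junctions and takes on a migratory, fibroblast-like form, was followed here through 10 genes. They are the transcription factors Snai1, Snai2, Zeb1, Zeb2, Twist1 and Twist2, the cadherins Cdh1 and Cdh2, the intermediate filament gene Vim and the epithelial adhesion gene Epcam. The 10 genes were taken by name out of the 46603 genes in each sample's table. All 10 passed the filter on low counts in each comparison.

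The data are RNA sequencing of 18 mouse lung cultures, 10 of organoids before transplantation and 8 of tumoroids. All cultures came from mice in which 1 Col1a1 allele holds a lox-stop-lox cassette, the ubiquitous CAG promoter and a human EGFR with the T790M and L858R changes, so that adenoviral Cre (Ad-Cre) switches the oncogene on and adenoviral GFP (Ad-GFP) leaves it off. Sorted cells were infected in culture and grown in Matrigel with mesenchymal endothelial support cells of the neonatal lung. For the transplant tumoroids, only Ad-Cre organoids were put orthotopically into nude (Foxn1 Nu/Nu) mice, and cells were cultured again from the tumors. The aim of the comparisons was to ask whether oncogene activation, the cell of origin and growth in vivo go with a change in these genes.

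One Ad-GFP and one Ad-Cre organoid culture stood for each of 4 populations: the trachea gave NGFR negative (club) and NGFR positive (basal) cells, and the distal lung gave Sca1 negative (alveolar type 2, AT2) and Sca1 positive (bronchioalveolar stem cell, BASC, mixed) cells. An alveolar and a bronchiolar subclone of the Ad-Cre BASC organoids, picked by shape, added 1 culture each. The tumoroids were 3 of AT2 origin, 3 of mixed BASC origin, 1 of bronchiolar BASC origin and 1 from an autochthonous tumor that arose after Ad-Cre was given to the airways of an intact mouse. The mouse of the autochthonous tumor was adult per the study's methods, and the ages of the other mice were not found in the sources used here. In the labels AT2-derived tumoroids 2 and 3 share the number 655, and mixed BASC-derived tumoroids 2 and 3 share the number 648 with the bronchiolar tumoroid. The labels do not say whether a number is a mouse, so p-values measure only the spread between these cultures.

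Several facts of the cultures bear on every result. Each organoid library held 27772660 to 97191624 expected counts and each tumoroid library 15327265 to 23355938, and organoids and tumoroids were sequenced on different platforms. Fibroblast markers were present in every culture: the summed TPM (a transcript level scaled for gene length and depth) of 12 of them ran from 624.2 to 671.2 in the 4 tracheal organoids, from 684.5 to 3761 in the 6 distal organoids and from 143.3 to 3611 in the 8 tumoroids, with Tcf21 at 0.06 TPM or less throughout. Endothelial markers were nearly absent, with a sum of 0.34 to 5.34 TPM over 8 genes in the 18 cultures, and of 6 leukocyte markers the pan-leukocyte gene Ptprc did not exceed 0.91 TPM. The sum of the 6 ran from 125.3 to 12290 TPM and was highest, at 7141 or more, in the AT2 and alveolar BASC organoids and the autochthonous tumoroid, where it was nearly all Lyz2 (up to 12264.39 TPM), a macrophage gene that AT2 cells also express. Its part in the results was not tested. The NGFR negative tracheal cultures held 1898.51 and 2062.77 TPM of the basal keratin Krt5 and 11.35 and 18.43 TPM of the club secretory gene Scgb1a1, although the 4 club markers together gave 8600 and 8008 TPM there, against 5817 and 4411 TPM in the basal cultures. These cultures thus carried both club and basal markers. The basal cultures held less Krt5, at 1694.23 and 1548.64 TPM. Their sum of 5 basal markers was also lower, at 3105 and 2776 TPM against 3689 and 3372 TPM. The names club and basal stand here for the sort. The AT2 marker Sftpc stood at 60434.98 TPM or more in the AT2 and alveolar BASC organoids. In bulk RNA, fewer cells of a type and less RNA per cell cannot be told apart.

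In the textbook account, SNAI1, SNAI2, ZEB1, ZEB2 and the TWIST factors repress epithelial genes, and the SNAI and ZEB proteins do so by binding E-boxes in promoters such as that of Cdh1. Cells then exchange the epithelial cadherin CDH1 and the adhesion molecule EPCAM for the neural cadherin CDH2 and the filament vimentin. Fibroblasts carry CDH2, vimentin and several of these factors at rest, and SNAI2 is also a factor of basal cells in layered epithelia.

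The promoters of Epcam and Snai1 are shown because they are the member promoters that held the E-box letters searched. CAGGTG and its reverse complement CACCTG, the same 6 bases read on either strand, were looked for in the 250 bases before each RefSeq start (build GRCm38.p6). Of 32851 such windows in the genome, 17.2% held at least 1 match and 2.06% held 2 or more. The first line is chr17:87635729-87635978 and the second chr2:167537945-167538194, both on the plus strand, with the matches in capitals.
Epcam: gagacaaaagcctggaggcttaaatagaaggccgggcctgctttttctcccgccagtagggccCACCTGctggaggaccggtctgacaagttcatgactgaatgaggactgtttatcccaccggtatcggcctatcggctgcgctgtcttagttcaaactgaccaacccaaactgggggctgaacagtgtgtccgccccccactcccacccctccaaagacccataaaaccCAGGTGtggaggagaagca
Snai1: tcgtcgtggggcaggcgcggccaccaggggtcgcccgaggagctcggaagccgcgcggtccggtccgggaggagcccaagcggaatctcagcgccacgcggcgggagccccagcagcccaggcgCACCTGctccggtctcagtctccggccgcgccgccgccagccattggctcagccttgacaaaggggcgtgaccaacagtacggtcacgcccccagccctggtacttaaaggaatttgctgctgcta
In Epcam the matches began 187 and 19 bases before the start, and in Snai1 the match began 126 bases before it. The windows of Zeb2 (4 starts), Twist1, Twist2 and Vim held none of these letters. Windows of Snai2, Zeb1, Cdh1 and Cdh2 were not analysed here.

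Among the organoids, the mesenchymal genes other than Snai2 were low in the tracheal cultures and high in the AT2 and alveolar BASC cultures. Vim (chromosome 2, 13573927 to 13582826, GRCm38) was measured at 117.26 and 105.16 TPM in the club Ad-GFP and Ad-Cre cultures and at 107.8 and 95.26 TPM in the basal ones. It stood at 152.29 and 285.33 TPM in the mixed BASC Ad-GFP and Ad-Cre cultures and at 238.22 TPM in the bronchiolar BASC culture. The alveolar BASC culture held 571.71 TPM, the AT2 Ad-GFP culture 590.37 TPM and the AT2 Ad-Cre culture 684.26 TPM. The order of the populations was thus trachea, then mixed and bronchiolar BASC, then alveolar BASC and AT2.

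Snai1 (chromosome 2, 167538195 to 167542814), the factor that most directly represses Cdh1, followed the same order. It ranged from 5.71 to 7.86 TPM in the 4 tracheal cultures, from 7.3 to 14.18 TPM in the mixed and bronchiolar BASC cultures and from 29.82 to 42.35 TPM in the AT2 and alveolar BASC cultures. Only the mixed BASC Ad-GFP culture, at 7.3 TPM, fell inside the tracheal range. Twist1 (chromosome 12, 33957671 to 33959829), a factor of embryonic mesenchyme, ranged from 3.31 to 3.74 TPM, from 4.3 to 7.34 TPM and from 21.15 to 26.55 TPM in those same 3 sets. Twist2 (chromosome 1, 91801461 to 91848028), its close relative, ranged from 3.59 to 4.89 TPM, from 4.38 to 10.31 TPM and from 14.45 to 19.05 TPM.

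The ZEB factors were lower but spread as widely. Zeb2 (chromosome 2, 44983632 to 45117395) went from 1.1 TPM in the club Ad-GFP culture to 15.36 TPM in the AT2 Ad-GFP culture, a 14.0-fold range. Zeb1 ranged from 3.15 TPM in the basal Ad-GFP culture to 20.06 TPM in the AT2 Ad-GFP culture. Cdh2, the neural cadherin that fibroblasts also carry, had the lowest levels of the set, from 0.51 to 0.7 TPM in the trachea and 5.69 and 4.09 TPM in the AT2 Ad-GFP and Ad-Cre cultures. At 40 to 91 expected counts, Cdh2 was measured with less precision in the trachea than any other member. Zeb1, Zeb2, Twist2 and Cdh2 overlap genes on the opposite strand, of which the most abundant had at most 86.45 counts in a culture, and the strand setting of the counting is not given in the sources used here.

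Snai2 (chromosome 16, 14705852 to 14709385) ran the other way in the organoids. It was highest in the club Ad-GFP culture at 21.81 TPM, stood at 16.62, 17.8 and 15.14 TPM in the other tracheal cultures, at 12.04 to 15.03 TPM in the mixed and bronchiolar BASC cultures and at 7.56 to 9.36 TPM in the alveolar BASC and AT2 cultures. The tracheal cultures all lay above the distal ones. The summed TPM of 5 basal cell markers was 2776 to 3689 in the tracheal cultures, 895.6 to 2334 in the mixed and bronchiolar BASC cultures and 3.41 to 127.7 in the alveolar BASC and AT2 cultures. These sets were thus in the same order as for Snai2, but not all cultures within them were. In the trachea both were highest in the club Ad-GFP and lowest in the basal Ad-Cre culture. In the mixed Ad-GFP, mixed Ad-Cre and bronchiolar BASC cultures the marker sum fell (2334, 1718 and 895.6) while Snai2 rose (12.04, 14.25 and 15.03 TPM). The alveolar BASC culture had the highest marker sum of its set (127.7) and the lowest Snai2 (7.56 TPM). The part of basal cells in the Snai2 level was not tested.

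The epithelial genes also differed among the populations. Epcam (chromosome 17, 87635979 to 87651129) was measured at 616.94 to 960.74 TPM in the trachea, at 654.06, 1056.51 and 1099.42 TPM in the mixed Ad-GFP, mixed Ad-Cre and bronchiolar BASC cultures, and at 113.23, 141.92 and 175.45 TPM in the AT2 Ad-GFP, AT2 Ad-Cre and alveolar BASC cultures. An antibody to EpCAM was among those used to sort the starting cells. Cdh1 (chromosome 8, 106603351 to 106670246) varied less, from 385.23 to 407.56 TPM in the trachea, from 377.3 to 559.22 TPM in the mixed and bronchiolar BASC cultures and from 212.61 to 274.39 TPM in the AT2 and alveolar BASC cultures. Both genes were lowest where Vim was highest.

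**Figure D1:**
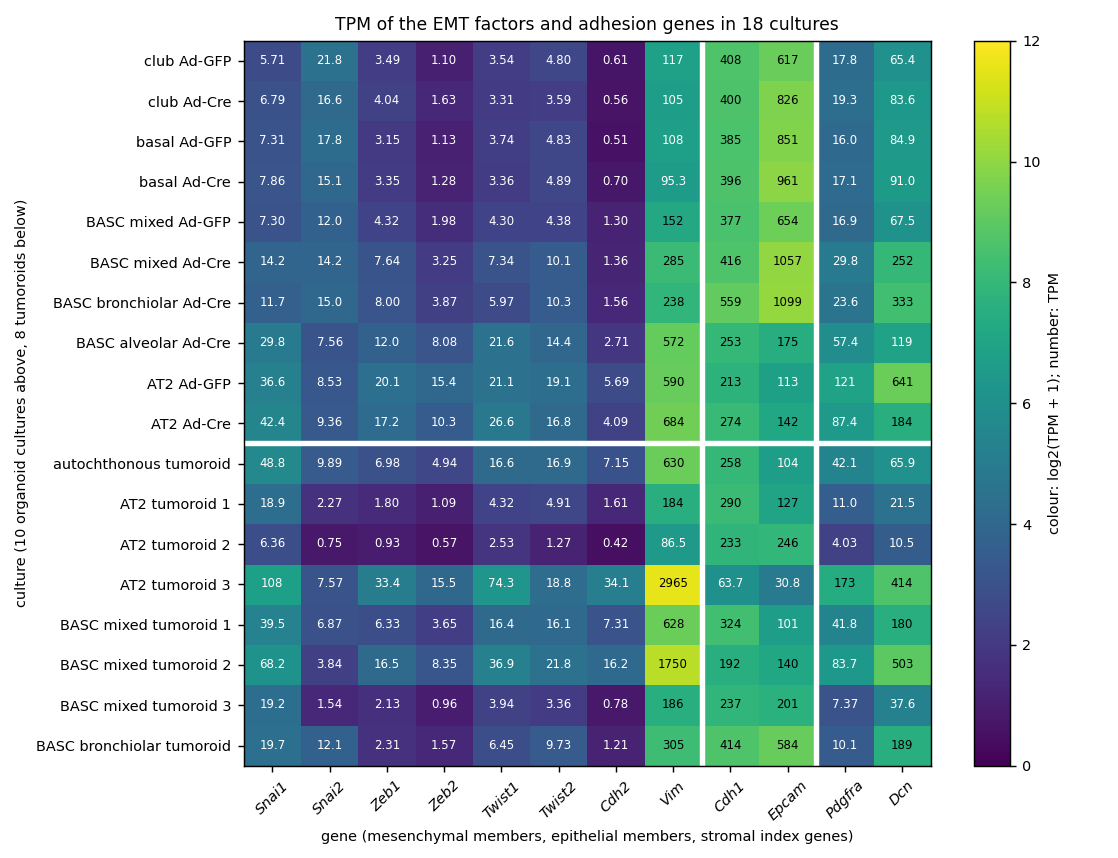
Level of each gene (columns) in each culture (rows), with the TPM printed and the colour giving log2(TPM + 1). Vim is at 95.26 to 117.26 TPM in the trachea and 571.71 to 684.26 TPM in the AT2 and alveolar BASC organoids, and AT2-derived tumoroid 3 stands apart with 2965.42 TPM of Vim and 30.79 TPM of Epcam.

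The tumoroids also spread widely. Vim was at 183.61, 86.48 and 2965.42 TPM in AT2-derived tumoroids 1 to 3, at 628.4, 1750.45 and 185.88 TPM in mixed BASC-derived tumoroids 1 to 3, at 305.1 TPM in the bronchiolar one and at 630.32 TPM in the autochthonous one. Snai1 ranged from 6.36 to 108 TPM, Twist1 from 2.53 to 74.34 TPM, Zeb1 from 0.93 to 33.36 TPM and Cdh2 from 0.42 to 34.15 TPM, each lowest in AT2-derived tumoroid 2 and highest in AT2-derived tumoroid 3. These 2 tumoroids carry the same number in their labels. Tumoroid 3 of AT2 origin also had the lowest Cdh1 (63.72 TPM) and Epcam (30.79 TPM) of the 18 cultures, and the highest Pdgfra (173.16 TPM).

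How far the members followed support-cell RNA was then measured within each platform. Pdgfra, the receptor of lung fibroblasts, and Dcn, a matrix proteoglycan they secrete, were averaged as log2 CPM (counts scaled for depth, with a prior count of 2) into a stromal index. In the organoids the index ran from 6.01 in the club Ad-GFP culture to 9.2 in the AT2 Ad-GFP culture. In the tumoroids it ran from 3.88 in AT2-derived tumoroid 2 to 9.01 in AT2-derived tumoroid 3.

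In the 10 organoid cultures 8 of the 10 members were correlated with the index (permutation test with 100000 draws, adjusted over all 14913 genes tested), against 43.9% of all genes. Snai1, Zeb1, Zeb2, Twist1, Twist2, Cdh2 and Vim rose with it, with Pearson r from 0.87 to 0.941, Spearman rho from 0.77 to 0.927 and adjusted permutation p from 0.00249 to 0.00674. Snai2 fell with it (r = -0.757, rho = -0.758, p = 0.0138, adjusted permutation p = 0.0356). Epcam (r = -0.741, rho = -0.358, adjusted permutation p = 0.0623) and Cdh1 (r = -0.645, rho = -0.418, adjusted permutation p = 0.0979) did not pass. The 4 tracheal cultures lie together at the low end of the index, and within the 6 distal cultures r was 0.751 to 0.909 for the 7 rising genes, -0.508 for Snai2, -0.682 for Epcam and -0.644 for Cdh1. No gene passed with 6 cultures, where the smallest exact permutation p is 0.00278. Without the 2 cultures farthest from the median of the index, r stayed at 0.807 to 0.944 for the 7 genes, was -0.248 for Epcam and turned to 0.038 for Cdh1, and no gene passed after adjustment. With the mean of 12 fibroblast markers as the index, all 10 members passed in the organoids, against 55.6% of all genes, Epcam with r = -0.85 (adjusted permutation p = 0.0281) and Cdh1 with r = -0.725 (adjusted permutation p = 0.0475).

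In the 8 tumoroids 7 of the 10 members were correlated with the index, against 2.71% of the 12937 genes tested. They were the same 7 genes, with r from 0.918 to 0.979, rho from 0.952 to 0.976 and adjusted exact permutation p from 0.0311 to 0.0441. Vim had the highest r. Snai2 had r = 0.666 (rho = 0.595, adjusted exact permutation p = 0.305), of the opposite sign to the organoids, and the difference between the platforms was not tested. For Epcam r was -0.605 (rho = -0.786, adjusted exact permutation p = 0.363) and for Cdh1 it was -0.592 (rho = -0.381, adjusted exact permutation p = 0.379). Without AT2-derived tumoroid 3 the 7 genes kept r from 0.912 to 0.976, that of Cdh1 became -0.258 and that of Epcam -0.353, and no gene of the genome passed. Without the 2 tumoroids farthest from the median, r was 0.855 to 0.962 for the 7 genes and again no gene passed.

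**Figure D2:**
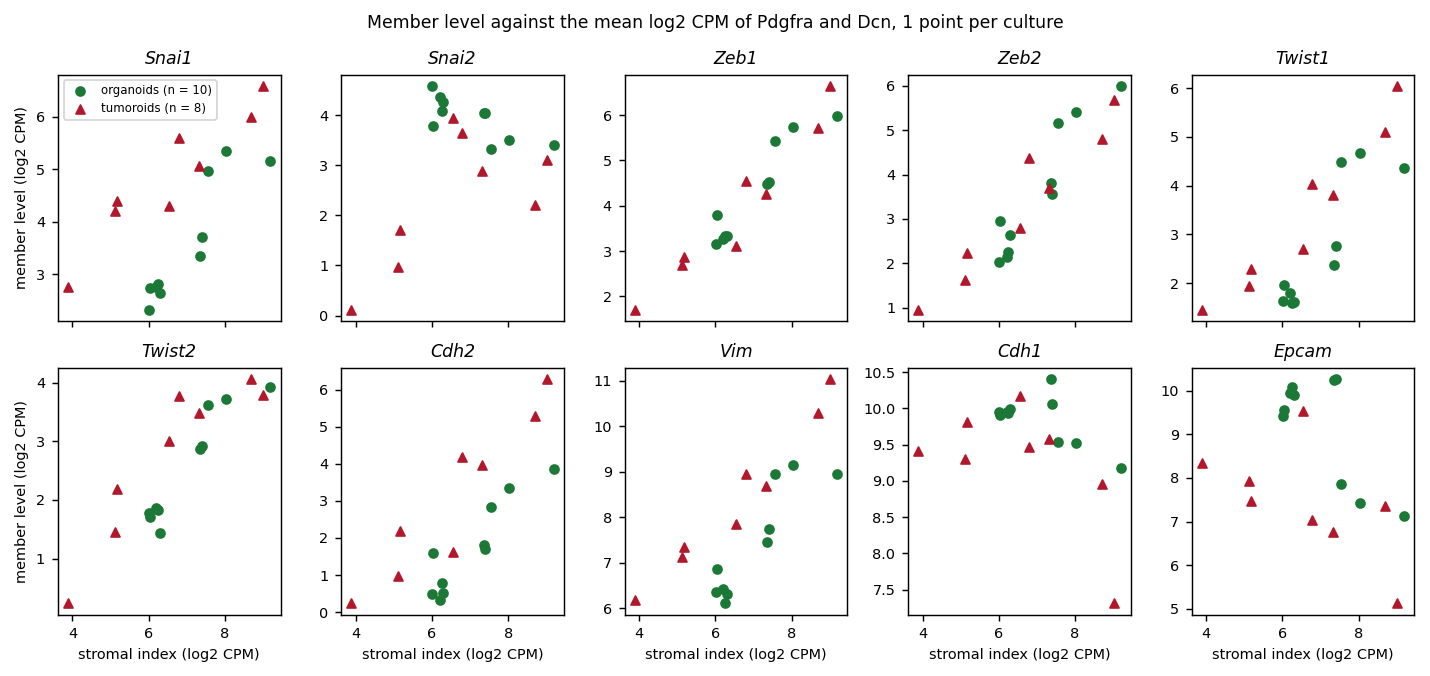
Log2 CPM of each member (vertical axis) against the stromal index, the mean log2 CPM of Pdgfra and Dcn (horizontal axis), with 1 green circle per organoid culture (n = 10) and 1 red triangle per tumoroid (n = 8). The 7 mesenchymal genes other than Snai2 rise with the index on both platforms (r = 0.87 to 0.979), while Snai2 falls in the organoids (r = -0.757).

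Most of the spread of these 7 genes between cultures went with the index. The standard deviation of their log2 level over the organoids was 0.953 to 1.464, and that of their log2 ratio to the index was 0.369 to 0.637. In the tumoroids the figures were 1.21 to 2.16 for the level and 0.384 to 0.774 for the ratio. For Epcam the ratio was more variable than the level, at 2.128 against 1.22 in the organoids and 2.758 against 1.279 in the tumoroids. That must hold for any gene with a negative r to the index, so it adds nothing to the correlations above. The 7 genes were also alike among themselves, with r from 0.935 to 0.993 over their 21 organoid pairs and 0.865 to 0.997 over the tumoroid ones, as a description over cultures that share depth and culture makeup. Whether epithelial cells of a culture also changed these genes was not tested, since the data are bulk.

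Oncogene activation was examined in the 4 matched pairs of Ad-Cre and Ad-GFP organoids. Epcam did not pass after adjustment and was higher with Ad-Cre in 4 of 4 pairs. It went from 616.94 to 826.27 TPM in club, 850.9 to 960.74 TPM in basal, 113.23 to 141.92 TPM in AT2 and 654.06 to 1056.51 TPM in mixed BASC cultures. Its log2 fold change was 0.41 ± 0.13 (SE, 4 pairs, edgeR quasi-likelihood adjusted p = 0.994). Snai1 was also higher in 4 of 4 pairs, with a log2 fold change of 0.38 ± 0.18 (edgeR adjusted p = 0.994).

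No other member moved one way in all pairs, and the share of all genes that did so is not given here. Vim had a log2 fold change of 0.19 ± 0.20, Cdh1 of 0.13 ± 0.11 and Cdh2 of 0.01 ± 0.20 over the 4 pairs. Twist1 was at 0.23 ± 0.20, Zeb1 at 0.19 ± 0.17, Zeb2 at 0.18 ± 0.23, Twist2 at 0.16 ± 0.29 and Snai2 at -0.06 ± 0.14. None of the 10 members passed in edgeR or DESeq2, 1 of them had an unadjusted p below 0.05 in each, and the share called among all 17749 genes was 0% in edgeR, with 350 at an unadjusted p below 0.05 and 5 called by DESeq2.

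The pair that moved most was mixed BASC. Twist2 went from 4.38 to 10.11 TPM with Ad-Cre there, Snai1 from 7.3 to 14.18 TPM, Vim from 152.29 to 285.33 TPM and Twist1 from 4.3 to 7.34 TPM. Pdgfra went from 16.95 to 29.83 TPM and Dcn from 67.49 to 251.78 TPM in the same pair. In the AT2 pair Dcn went from 640.53 to 183.97 TPM, Zeb2 from 15.36 to 10.34 TPM and Cdh2 from 5.69 to 4.09 TPM. Zeb1, Zeb2, Twist2 and Cdh2 thus had opposite signs in the AT2 and the mixed BASC pair, as Pdgfra and Dcn did. Vim (0.206 and 0.884 in log2 CPM), Snai1 (0.18 and 0.968) and Twist1 (0.297 and 0.781) were higher with Ad-Cre in both pairs, as were Snai2, Cdh1 and Epcam. The part of support cells in this was not tested.

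**Figure D3:**
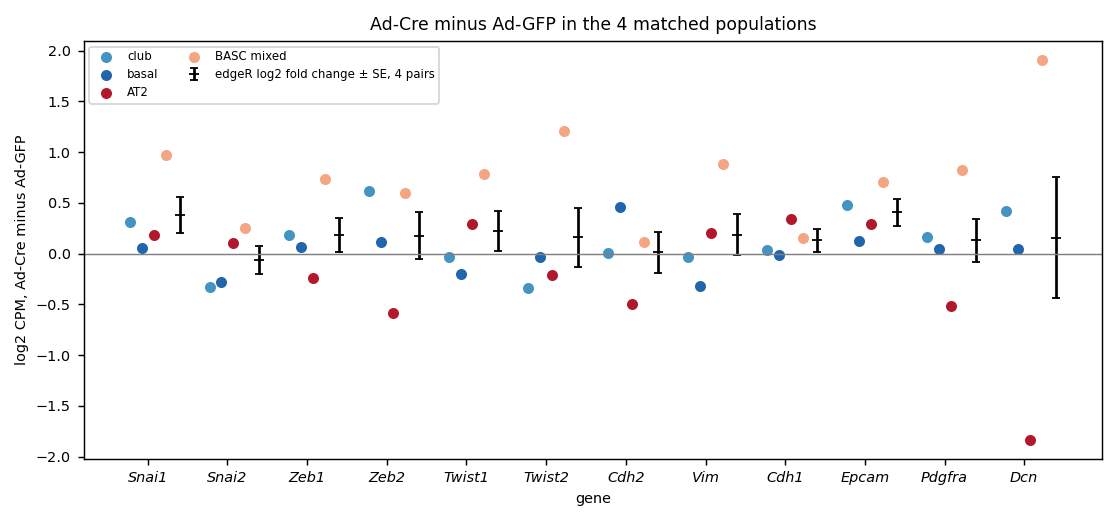
Difference in log2 CPM between the Ad-Cre and the Ad-GFP culture (vertical axis) for each gene, with 1 coloured point per population and the edgeR log2 fold change ± SE over the 4 pairs in black. Epcam and Snai1 are the members with all 4 points above 0, and Dcn runs from -1.83 in the AT2 pair to 1.91 in the mixed BASC pair.

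The effect of Ad-Cre was compared between the trachea and the distal lung by an interaction term. The largest differences among the members were those of Vim (-0.73 ± 0.29, SE), Twist2 (-0.68 ± 0.55) and Twist1 (-0.66 ± 0.31), each lower in the trachea. Vim had a log2 fold change of -0.18 ± 0.12 in the 2 tracheal pairs and of 0.55 ± 0.26 in the 2 distal pairs. No member passed (edgeR adjusted p = 1 for each, none with an unadjusted p below 0.05, and none past the threshold in DESeq2). Of 19178 genes 0% passed in edgeR, with 890 at an unadjusted p below 0.05 and 145 called by DESeq2. Vim passed with the stromal index as a covariate (-0.75, edgeR adjusted p = 0.0335), a fit that called 3.13% of all genes. That fit had nearly as many terms as cultures, so its p-values rest on little replication. Without the AT2 pair the estimates were -1.11 for Vim and -1.44 for Twist2, with the distal effect resting on the mixed BASC pair alone.

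The compartments differed by larger estimates than the Ad-Cre pairs did, though these sources were not tested against each other. The distal cultures also differed among themselves. Vim averaged 225.3 TPM in the mixed and bronchiolar BASC organoids and 615.4 TPM in the AT2 and alveolar BASC ones. Epcam averaged 936.7 and 143.5 TPM in those sets, against 813.7 TPM in the trachea. Tracheal and distal organoids did not overlap in log2 CPM for 6 of the 10 members, Zeb1, Zeb2, Twist1, Cdh2 and Vim being lower and Snai2 higher in the trachea, against 11.4% of all genes without overlap. Cdh2 was 0.595 ± 0.081 TPM (SD, n = 4) in the trachea and 2.79 ± 1.78 TPM (SD, n = 6) in the distal lung. Vim was 106.4 ± 9.05 TPM against 420.4 ± 221 TPM, and Snai2 17.8 ± 2.86 TPM against 11.1 ± 3.11 TPM.

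The log2 fold changes (trachea minus distal, with the virus as a covariate) were -2.62 ± 0.65 for Zeb2, -2.31 ± 0.54 for Cdh2, -2.17 ± 0.63 for Twist1, -2.12 ± 0.50 for Vim, -1.95 ± 0.45 for Zeb1, -1.88 ± 0.56 for Snai1 and -1.59 ± 0.43 for Twist2. Snai2 had 0.60 ± 0.19, Epcam 0.68 ± 0.66 and Cdh1 0.17 ± 0.23. No member passed in edgeR (adjusted p from 0.109 to 0.634), while 8 of the 10 had an unadjusted p below 0.05, against 25.9% of all genes. DESeq2 called those 8 genes, with Snai2 at an adjusted p of 0.0332 and the others between 0.000465 and 0.00778, in a fit that called 16.2% of all genes. The share called by edgeR over all 18103 genes was 0.0166%. These cultures are Ad-GFP and Ad-Cre aliquots and subclones of 2 sorted populations in each compartment, so they are not independent. With counts summed per population (2 tracheal against 4 distal, the subclones kept apart) no gene passed in edgeR (smallest adjusted p of a member 0.407). In that fit 7 members had an unadjusted p below 0.05, as had 2394 of all 19769 genes, and Zeb2 had an estimate of -2.50 ± 0.80.

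Stromal RNA moved with this difference. Pdgfra had a log2 fold change of -1.81 ± 0.61 and Dcn of -1.81 ± 0.58. All 11 tested fibroblast markers were lower in the trachea, with a median of -1.81, the median of all genes being 0.001. The 5 AT2 markers were lower there too, with a median of -9.354, and the cultures richest in them had the highest index. The parts of stromal RNA and of AT2 identity in the difference were not tested. With the index as a covariate the 7 mesenchymal genes lay between -0.96 and -0.38 and Snai2 at 0.37 (edgeR adjusted p = 1 for each). Leaving out the mixed BASC Ad-GFP culture, which had the lowest index of the distal cultures, brought 7 members past the threshold (edgeR adjusted p from 0.00873 to 0.0190), with 27.2% of all genes called.

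**Figure D4:**
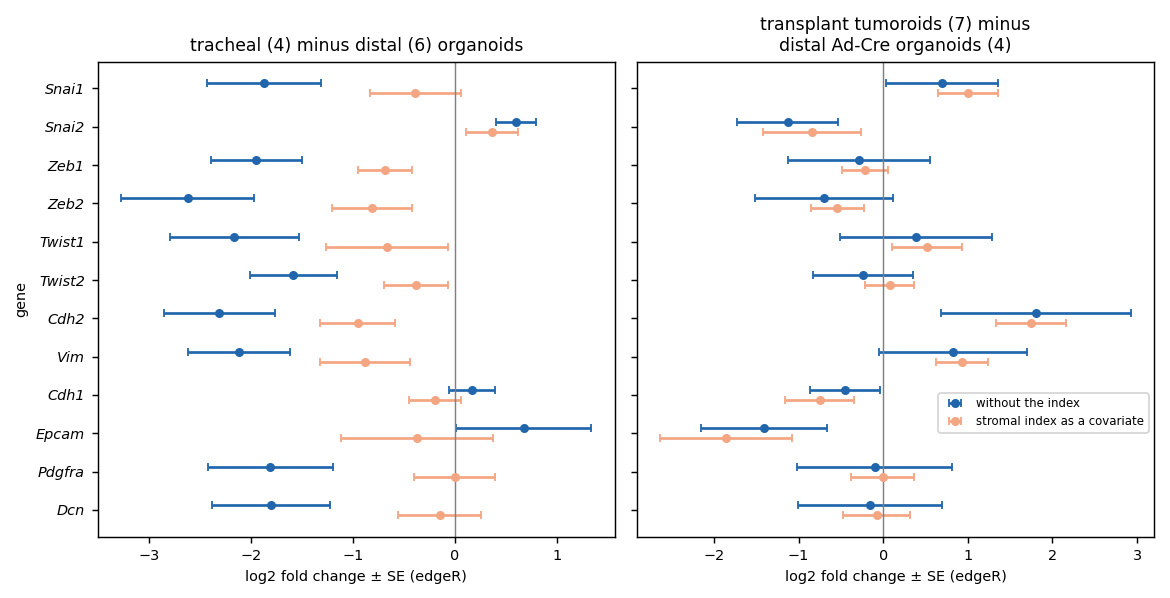
Log2 fold change ± SE (horizontal axis, edgeR) of each member, Pdgfra and Dcn for trachea minus distal organoids (left) and transplant tumoroids minus distal Ad-Cre organoids (right), without (blue) and with (orange) the stromal index as a covariate. On the left the 7 mesenchymal genes move from between -2.62 and -1.59 to between -0.96 and -0.38, and on the right Cdh2 stays near 1.8 with a smaller error.

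Within the BASC organoids the alveolar and the bronchiolar subclone, 1 culture each and so untested, differed in both directions. The alveolar culture held more Vim (571.71 against 238.22 TPM), Twist1 (21.61 against 5.97 TPM) and Snai1 (29.82 against 11.71 TPM). The bronchiolar culture held more Epcam (1099.42 against 175.45 TPM), Cdh1 (559.22 against 253.49 TPM) and Snai2 (15.03 against 7.56 TPM). Pdgfra was higher in the alveolar culture (57.38 against 23.6 TPM) and Dcn in the bronchiolar one (332.61 against 119.29 TPM), so their stromal indices were close, at 7.55 and 7.36. The summed TPM of the 12 fibroblast markers was higher in the alveolar culture (1983 against 1427). So was that of 8 smooth muscle and pericyte markers (236.1 against 137.8).

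Growth in vivo was examined by comparing the 7 transplant tumoroids with the 4 distal Ad-Cre organoids. Cdh2 had the largest difference, from 1.36 to 4.09 TPM before transplantation and 0.42 to 34.15 TPM after it, a log2 fold change of 1.80 ± 1.13 (SE, edgeR adjusted p = 0.287). Epcam was lower in the tumoroids by its estimate (-1.41 ± 0.75, edgeR adjusted p = 0.208), as was Snai2 (-1.13 ± 0.59, edgeR adjusted p = 0.205), whose TPM was 7.56 to 15.03 in the organoids and 0.75 to 12.13 in the tumoroids. In each case the groups overlapped. The organoids differed in lineage markers. Epcam was 141.92 and 175.45 TPM in the AT2 and alveolar BASC ones, and 1056.51 and 1099.42 TPM in the mixed and bronchiolar BASC ones. The summed TPM of 5 AT2 markers was 72200 and 72480 in the first, and 3212 and 2730 in the second. In the AT2- and mixed BASC-derived tumoroids this sum was 28700 to 140400 and Epcam 30.79 to 245.83 TPM. The part of lineage makeup in these estimates was not tested.

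The remaining members lay closer to 0, with Vim at 0.83 ± 0.88, Snai1 at 0.70 ± 0.66, Zeb2 at -0.70 ± 0.82 and Cdh1 at -0.45 ± 0.41. None of the 10 passed in edgeR or DESeq2 or had an unadjusted p below 0.05, against 19.6% of 16139 genes called in edgeR. With the stromal index as a covariate Cdh2 passed (1.74 ± 0.41, edgeR adjusted p = 0.0161), 1 of 10 members against 21.3% of all genes, while without AT2-derived tumoroid 3 and without the covariate its estimate was 0.90. Sequencing platform and growth in vivo cannot be told apart in this comparison.

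Between the 3 AT2-derived and the 3 mixed BASC-derived tumoroids no member differed beyond the spread. Vim was 1079 ± 1635 TPM (SD, n = 3) in the first and 854.9 ± 806.5 TPM (SD, n = 3) in the second, and Cdh1 196 ± 118 TPM against 251 ± 67.3 TPM. The log2 fold changes ran from -0.66 ± 0.99 for Twist2 to 0.56 ± 1.59 for Cdh2 (edgeR adjusted p = 1 for each). None had an unadjusted p below 0.05 and none passed in DESeq2, and edgeR called 0% of 15470 genes, with 144 at an unadjusted p below 0.05 and 7 called by DESeq2. Single tumoroids set the sign. Without AT2-derived tumoroid 3 the estimate of Vim was -2.37 ± 0.95, that of Cdh2 -2.78 and that of Cdh1 0.33, with no member past the threshold (smallest edgeR adjusted p = 0.793). Without mixed BASC-derived tumoroid 3 the estimates of Vim, Snai1 and Zeb2 were -0.13, -0.25 and -0.10. Tumoroids 1 and 2 of AT2 origin had stromal indices of 5.17 and 3.88, the mixed BASC ones 7.32, 8.7 and 5.11.

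The bronchiolar BASC tumoroid, a single library, lay outside the range of the 6 AT2- and mixed BASC-derived tumoroids for 3 of the 10 members, against 37.4% of all genes. It was above them for Epcam (584.04 TPM against 30.79 to 245.83), Cdh1 (413.51 TPM against 63.72 to 324.05) and Snai2 (12.13 TPM against 0.75 to 7.57). The other members fell within the range. This tumoroid also held 102.61 TPM of Krt5 and 26.83 TPM of Ngfr, where the 6 others had at most 0.3 and 0.17 TPM.

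The autochthonous tumoroid was outside the same range for 1 member, Snai2 at 9.89 TPM, against 31.8% of all genes. Its Epcam was 104.13 TPM, its Cdh1 257.77 TPM and its Vim 630.32 TPM, all inside. The basal markers Krt5 and Trp63 were at 0 and 0.21 TPM in it.

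Genes whose pattern over the cultures was most like a member's were named by Pearson r of log2 CPM, as a description. In the tumoroids (n = 8, 10090 genes) Cdh2 was closest to Pdgfra itself (r = 0.999), then to Loxl1 (0.998), a collagen cross-linking enzyme, and Armcx3 (0.995). Vim was closest to Flnc (0.998), Ptgis (0.996) and the basement membrane gene Nid1 (0.995), and Zeb1 to Nid1 (0.996), Gas1 (0.996) and the collagen cross-linker Lox (0.995). Twist1 was closest to Ptgis (0.995), Flnc (0.995) and Armcx3 (0.994), Snai1 to Mxra7 (0.996), Numbl (0.993) and Tfpi (0.988), and Zeb2 to Plpp1 (0.997), Lix1l (0.996) and Sirpa (0.995).

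In the organoids (n = 10, 10519 genes) Vim was closest to Ndrg4 (0.996), the fibroblast surface gene Thy1 (0.995) and the AT2 protease gene Napsa (0.994). An AT2 gene and a fibroblast gene thus had nearly the same pattern there. The AT2 Ad-GFP, AT2 Ad-Cre and alveolar BASC organoids, richest in AT2 markers, also had the highest stromal indices (9.2, 8.03 and 7.55). Dcn by itself did not follow this, at 119.29 TPM in the alveolar BASC culture against 251.78 and 332.61 TPM in the mixed Ad-Cre and bronchiolar BASC ones. What set the shared pattern was not tested. Zeb2 was closest to Sparcl1 (0.993), Pak3 (0.992) and Sec24d (0.992), Twist1 to Gnb4 (0.997), Mxra8 (0.996) and Npr2 (0.994), and Epcam to Rdh10 (0.996), Prss22 (0.995) and Socs2 (0.994). Snai2 was closest to Zfp46 (0.961), Tbc1d2 (0.96) and Ppp2r1a (0.957), a looser likeness than that of any other member, and Cdh1 to Swap70 (0.98), Prss23 (0.978) and Cwc22 (0.973).

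Other genes of the transition were taken from lists. In the comparison of transplant tumoroids with distal Ad-Cre organoids Tgfbr1, a TGF-beta receptor, fell (-0.77 ± 0.20, SE, edgeR adjusted p = 0.0217), and no gene of the mesenchymal list rose. Of 7 tested catenins and other cadherins Cdh11, the cadherin of fibroblasts, was lower in the tumoroids (-2.10 ± 0.49, edgeR adjusted p = 0.0130). So were 3 of 11 fibroblast markers, Lum, Postn and Fbn1 (-2.05, -2.59 and -1.87). Of all 16139 genes 19.6% were called in this comparison, in which platform and growth in vivo cannot be told apart. Cdh2 and Cdh11, both cadherins of mesenchymal cells, thus had estimates of opposite sign, and only that of Cdh11 passed.

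None of the 10 epithelial gatekeepers, the factors and splicing regulators that hold the epithelial state (Grhl, Ovol, Esrp and Elf genes), and none of the 16 junction genes passed in any of the 5 tested comparisons. The share of all genes called was 19.6% for tumoroids against organoids. It was at most 0.0166% in the others, where almost no gene of any kind passed. In the comparison of trachea and distal lung the gatekeepers gave a median difference of 0.64 on the log2 scale and the junction genes one of 0.23. The 19 mesenchymal genes had a median of -0.53 there, and none of them passed the adjusted threshold in edgeR. Of them 10 had a negative estimate at an unadjusted p below 0.05 and none a positive one, against 25.9% of all genes in either direction.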

How the data were processed

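RNA of 18 mouse cultures was measured by RNA sequencing, with TruSeq libraries on HiSeq for the organoids and DNBSEQ for the tumoroids. The authors trimmed reads with Trimmomatic 0.39 and deposited, per gene and library, expected counts and TPM from RSEM 1.3.2, with STAR 2.6.1d also named in the submitters' processing notes and GRCm38 as the build. Of 46603 genes, 46005 were matched to GENCODE names and 598 were not.

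Expected counts were rounded and tested in R 4.3.3 with edgeR 4.0.16 (TMM, low-count filter, quasi-likelihood test, Benjamini-Hochberg adjustment over all genes tested, threshold 0.05), with DESeq2 1.42.0 as an alternative. The Ad-Cre test had the population as a block. Correlations used log2 CPM with a prior count of 2, and permutation p-values (exact below 10 cultures, otherwise 100000 draws) were adjusted over all genes, although adjustment over the 10 members had been planned. Genes outside the 10 were named when past the threshold (at most 3 per list and direction) or as the 3 closest in pattern, and cell type markers were added to describe the cultures. Tumoroids of AT2 origin were grouped by origin, though their label gives the sort as NGFR negative. Scripts were tested on simulated data. The members and lists were chosen with earlier results of these data known. The human transgene was not analysed here. A result on 1 gene of the mesenchymal list is not reported here. Promoters came from RefSeq (GRCm38.p6). Intervals and errors cover the spread between cultures, with 1 library per population and virus.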

Additional observations from a re-analysis of the deposited data

Results flagged for a closer look

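Of 40 checks of a single culture against its group, 2 stood out, where chance gives about 1 in 20. Twist2 in the tracheal organoids was lowest in the club Ad-Cre culture at 3.59 TPM, with the next culture at 4.8 TPM, a gap of 0.931 of the range of 4 cultures. Epcam in the transplant tumoroids was highest in the bronchiolar BASC tumoroid at 584.04 TPM, with the next at 245.83 TPM, a gap of 0.611 of the range of 7 tumoroids.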

How the results depend on the processing

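Cultures are few, 1 per population and virus, and Cdh2 had 23 to 91 counts in its 8 lowest libraries, so small differences were not detectable. The cause of the changes below was not tested. Members past the threshold numbered 0 in each of the 5 fits, and changed to 1 for the interaction and to 1 for tumoroids against organoids with the stromal index as a covariate, and to 8 for trachea against distal lung in DESeq2. Leaving out a culture gave 0 to 7 members for trachea against distal lung (7 when the Ad-GFP culture of mixed BASC was left out). For the interaction, leaving out a pair left 1 compartment with 1 pair, so only estimates are given. The correlation counts of 8 (organoids) and 7 (tumoroids) became 0 without the 2 farthest cultures, 0 in the 6 distal organoids and 0 without AT2-derived tumoroid 3. The last 2 of these, and a comparison of tumoroids and organoids restricted to AT2 and mixed BASC origin, were chosen after seeing the data. With log2(TPM + 1) the organoid count was 7, against 35.8% of all genes, as Snai2 did not pass (r = -0.711, adjusted permutation p = 0.0675). The tumoroid count was 7, against 3.52% of all genes. The r of Cdh1 in the organoids turned to 0.038 without the 2 farthest.

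In the fits as reported, none of the members below was past the threshold. Their estimates changed sign as follows. For Ad-Cre, Cdh2 was -0.0217 with the covariate, Zeb2 -0.30 and Cdh2 -0.27 without the population block, Twist1 -0.12, Twist2 -0.18 and Vim -0.18 in the tracheal pairs, and Snai2 0.18 and Cdh2 -0.19 in the distal pairs. Leaving out a pair gave -0.16 to 0.0257 for Snai2, -0.0069 to 0.35 for Zeb1, -0.0091 to 0.46 for Zeb2, -0.19 to 0.32 for Twist2, -0.13 to 0.22 for Cdh2 and -0.0418 to 0.36 for Vim. For the interaction it gave -0.84 to 0.012 for Snai1, -0.66 to 0.38 for Zeb1, -0.29 to 0.96 for Zeb2, -1.44 to 0.0557 for Twist2 and -0.45 to 0.0289 for Epcam. With the covariate Cdh1 was -0.20 and Epcam -0.37 for trachea against distal lung, and Twist2 0.074 for tumoroids against organoids, where leaving out a culture gave -0.38 to 0.77 for Twist1.

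Between AT2 and mixed BASC tumoroids, the covariate gave 0.0643 for Snai2 and -0.91 for Epcam, and counts summed per label number gave -0.22 for Snai1, -0.0927 for Zeb2, 0.0069 for Cdh1 and -0.0806 for Vim. Leaving out a tumoroid gave -1.49 to 0.69 for Snai1, -1.14 to 0.40 for Snai2, -2.33 to 1.56 for Zeb1, -2.19 to 1.301 for Zeb2, -2.23 to 1.497 for Twist1, -0.56 to 0.33 for Cdh1, -2.78 to 1.68 for Cdh2, -2.37 to 1.52 for Vim and -0.70 to 0.57 for Epcam. No paired analysis was possible between AT2 and mixed BASC tumoroids because they share no label number, and the bronchiolar tumoroid, which shares 648 with 2 mixed BASC ones, was compared by range with no test.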
